A study of Saccharomyces cerevisiae with 12 samples.

Results

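PHO89 (systematic name YBR296C, on chromosome II in the R64 annotation) encodes a sodium/phosphate cotransporter of the plasma membrane of the budding yeast Saccharomyces cerevisiae. It is 1 of the 6212 rows of the deposited table, of which 5857 held a value on at least 1 array, and PHO89 itself had a value on 11 of the 12 arrays. The row was found by its systematic name, but the gene was chosen by its measured ratios in the 4 groups, its ranks among genes and its genotype differences. Those values are therefore given as a description with no test, and tests are given for other genes only.

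Each array carried RNA from treated cells and RNA from control cells of one strain, labelled with the dyes Cy5 and Cy3. Deletion mutants of SNF1 (snf1::KanMX, 4 arrays) and wild-type cells (4 arrays), both in strain DBY4741, were grown to log phase in YPD, the rich medium with glucose, at 28 °C and exposed for 10 min to pH 8.0, set with 16 mM KOH, against pH 5.5, the pH of cultures given 16 mM KCl. For the low glucose comparison an snf1 mutant, whose allele the labels do not spell out (2 arrays), and wild-type cells (2 arrays), both in strain DBY746, were moved from YPD to YP with 0.05% glucose for 15 min, against YP with 2% glucose. The treatments thus differed in strain, time and handling as well as in the stimulus. Within each group the treated RNA carried Cy5 on as many arrays as it carried Cy3. The genotype field of snf1 array 1 at pH 8 reads snf11::KanMX, while its title names snf1.

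The files hold 1 log ratio of treated over control per gene and array, which is a change and not a level of mRNA. It was read as log2, because the largest value, 7.475, is 178-fold as log2 but 1763-fold as a natural logarithm, beyond the 655-fold span between 100 fluorescence units and the scanner's maximum. The direction is likely rather than stated, and arrays of opposite dye orientation correlated across genes with a coefficient of at least 0.539 in 36 pairs. The labels do not say whether replicate arrays came from separate cultures, so p-values measure the spread between these arrays, which may be technical. SNF1 itself gave a ratio on 1 snf1 array (0.16) and 1 wild-type array (0.29) at pH 8, and a ratio within a strain does not check the deletion.

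Yeast takes up phosphate through low-affinity carriers and through the high-affinity transporters Pho84, which works with protons at acid pH, and Pho89, which works with sodium at alkaline pH. PHO89 belongs to the PHO genes that the transcription factor Pho4 switches on in phosphate starvation, and alkaline pH raises it through calcineurin, the calcium-activated phosphatase, and its transcription factor Crz1. Snf1 is the AMP-activated protein kinase of yeast, which relieves the repression of many genes by glucose through the repressors Mig1, Mig2, Nrg1 and Nrg2.

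PHO89 mRNA differed little on average between pH 8 and pH 5.5 in snf1 cells and was far higher at pH 8 in wild-type cells. The log2 ratios in snf1 cells were -0.17, -0.34, 1.27 and 1.00 on arrays 1 to 4, a mean of 0.44 ± 0.81 (SD, n = 4) or 1.36-fold. In wild-type cells they were 3.86, 4.30, 5.01 and 5.12, a mean of 4.57 ± 0.60 (SD, n = 4) or 23.8-fold. The groups did not overlap: the highest snf1 array showed 2.41-fold and the lowest wild-type array 14.6-fold. Within snf1 cells arrays 1 and 2 lay slightly below no change, and arrays 3 and 4 at 2.41-fold and 1.99-fold. The RNA came from whole cultures, so a large change in a few cells and a smaller one in all cells cannot be told apart.

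At low glucose the change was smaller. The log2 ratio was -0.52 (0.698-fold) on array 1 of snf1 cells, and array 2 gave no value for PHO89. In wild-type cells it was 1.52 and 1.62, a mean of 1.57 ± 0.07 (SD, n = 2) or 2.97-fold. The single snf1 value lay below both wild-type values, but it has no replicate.

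**Figure D1:**
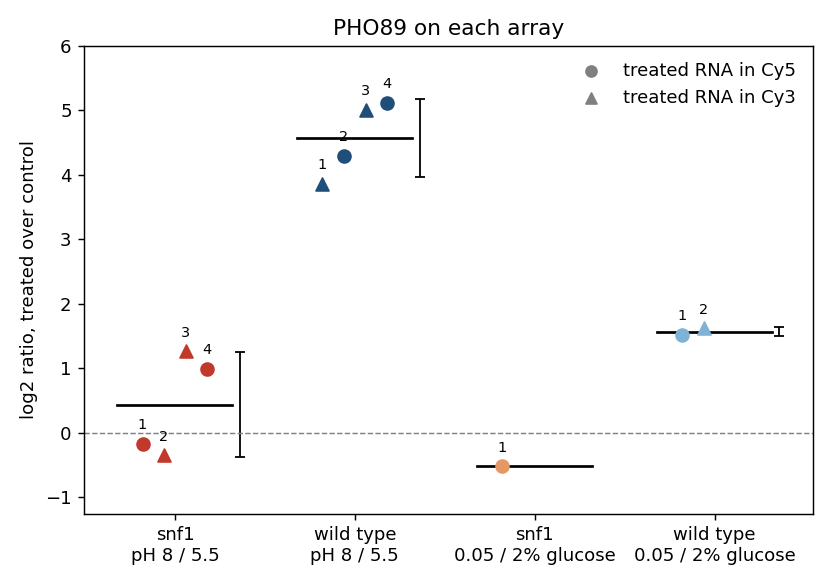
PHO89 on each of its 11 arrays: the vertical axis is the log2 ratio of treated over control, points are arrays with their replicate number, point shape gives the dye of the treated RNA, lines are group means and bars 1 SD. The 4 snf1 arrays at pH 8 lie between -0.34 and 1.27, the 4 wild-type arrays between 3.86 and 5.12, the single snf1 array at low glucose is at -0.52 and the wild-type arrays there are at 1.52 and 1.62.

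Ordered by mean log2 ratio, PHO89 changed most in wild type at pH 8, then in wild type at low glucose, then in snf1 at pH 8, and was lowest in snf1 at low glucose. The first step in this order separates groups whose arrays lie far apart. Between wild type at low glucose and snf1 at pH 8 the gap is narrow, since the highest snf1 array at pH 8 (1.27) comes close to the lowest wild-type array at low glucose (1.52). The snf1 value at low glucose (-0.52) lay just under the lowest snf1 array at pH 8 (-0.34), and with 1 array it has no spread of its own, so the order of these 2 groups is not resolved.

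Among all genes PHO89 stood at very different places in the groups. By mean ratio it ranked 825 of 4591 genes in snf1 at pH 8, with 17.9% of genes above it, and 4 of 4979 in wild type at pH 8, with 0.0603% above it. On single wild-type arrays at pH 8 its rank was 7, 4, 6 and 4, while on snf1 arrays it was 2679, 3232, 166 and 249. At low glucose it ranked 3447 of 4155 on its single snf1 array, with 82.9% of genes above it, and 365 of 5225 in wild type, with 6.97% above it. In wild type at pH 8 the genes next above it were RGI1 (5.29 ± 0.26 SD), a protein of respiratory energy metabolism, and AIM17 (5.01 ± 0.24 SD). Those next below were HXT2 (4.33 ± 1.37 SD), a high-affinity hexose transporter, and GLC3 (4.08 ± 0.44 SD), the glycogen branching enzyme. The spreads of PHO89, HXT2 and GLC3 overlap, so its exact place among them is not resolved by 4 arrays.

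The difference between genotypes at pH 8, snf1 minus wild type, was -4.13 on the log2 scale (SE 0.40 from the model described next), or 17.6-fold lower in snf1. It was the lowest of the 4380 genes compared, whose median was -0.003. The next lowest were HXT7, a high-affinity hexose transporter that may share signal with its near-identical copy HXT6, at -3.02 (SE 0.17), and YCS4, a condensin subunit, at -2.83 (SE 0.39). The rows of HXT7 and HXT6 did not read alike. HXT6 had means of 1.37 in snf1 and 1.66 in wild type at pH 8, a difference of -0.29 (SE 0.20), and why they differ was not tested. At low glucose the difference in PHO89 was -2.12 (SE 0.71) in the model with a dye term and -2.09 between the plain means, or 4.26-fold, and it rests on 1 snf1 array. The median difference over the 3651 genes compared at low glucose was 0.18.

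Other genes were tested with limma, which fits a linear model to every gene and moderates its variance, here 4 group means and a dye term over all 12 arrays. A gene was called at a Benjamini-Hochberg adjusted p under 0.05 over the genes tested in that comparison. At pH 8 the genotypes differed in few genes: 51 of 4380 (1.16%) were called, 18 higher (0.411%) and 33 lower (0.753%) in snf1. That count moved between 22 and 161 when single arrays were left out, and fell to 0 of 4449, with 300 at an unadjusted p under 0.05, when arrays 1 with 2 and 3 with 4 were averaged and counted as 1 replicate.

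**Figure D2:**
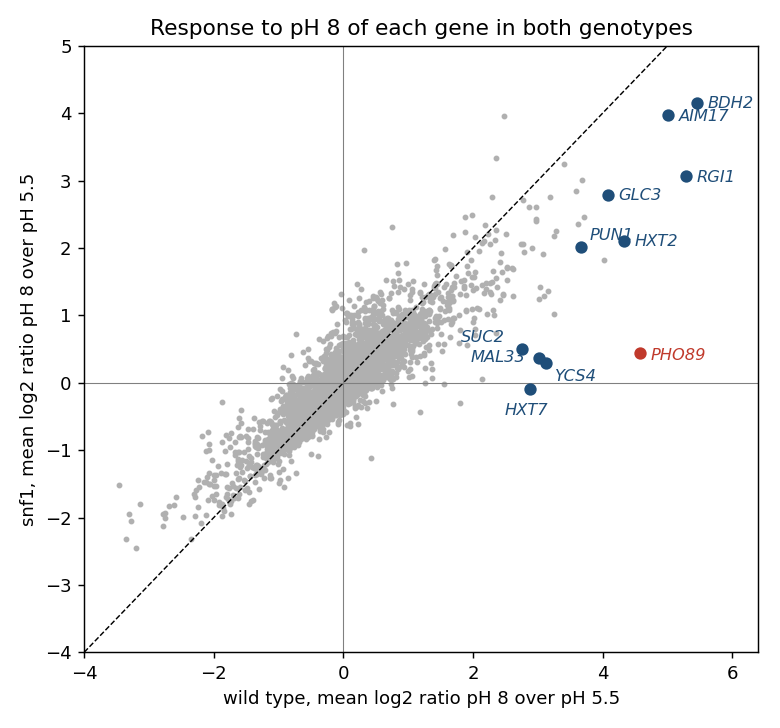
Mean log2 ratio of pH 8 over pH 5.5 in snf1 (vertical axis, 4 arrays) against wild type (horizontal axis, 4 arrays) for each gene tested in both, with the dashed line marking equal values. PHO89 is at 0.44 and 4.57, far below the line. Of the labelled genes, YCS4, MAL33, SUC2 and HXT7, at 2.76 to 3.13 in wild type, are nearest to its height, and RGI1, AIM17 and GLC3 are much closer to the line.

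The genes next to PHO89 in rank in wild type at pH 8 had higher means than PHO89 in snf1. RGI1 had a mean log2 ratio of 3.07 in snf1 and 5.29 in wild type, and AIM17 of 3.97 in snf1 and 5.01 in wild type. HXT2 had 2.11 in snf1 and 4.33 in wild type, and GLC3 had 2.79 in snf1 and 4.08 in wild type. These genes were picked by their wild-type rank beside PHO89, and the values are a description.

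Relative to pH 8, the low glucose ratio of PHO89 was smaller than that of its neighbours in rank. In wild type its log2 ratio at low glucose was 34.3% of that at pH 8, against 53.7% for HXT2, 94.4% for GLC3, 116% for AIM17 and 132% for RGI1. Of the 24 genes with a wild-type mean of at least 3 at pH 8, the sodium pump gene ENA2 had the lowest share, 14.2%. Since strain, time and handling differed between the treatments, what lies behind these shares cannot be told apart.

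The ratio of PHO89 differed more between arrays 1 and 2 and arrays 3 and 4 than between the dyes. At pH 8 arrays 1 and 2 averaged -0.26 in snf1 and 4.08 in wild type, and arrays 3 and 4 averaged 1.13 in snf1 and 5.07 in wild type. The difference of the genotypes was -4.34 over arrays 1 and 2 and -3.93 over arrays 3 and 4. Arrays with the treated RNA in Cy5 averaged 0.41 in snf1 and 4.71 in wild type, a difference of -4.29, and those with it in Cy3 averaged 0.46 in snf1 and 4.44 in wild type, a difference of -3.97. Arrays 3 and 4 were thus higher than arrays 1 and 2 in both genotypes.

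The shift of PHO89 between arrays 1 and 2 and arrays 3 and 4 was among the larger ones. It was 1.39 in snf1, with 0.699% of 4005 genes above it, and 0.99 in wild type, with 1.41% of 4534 genes above it. ENA2, a sodium pump gene whose spot may share signal with its near-identical copies, shifted by 1.61 in snf1 and 0.77 in wild type, and ENA1, the main sodium pump gene, by 3.52 in wild type, the highest of the 4534. The median of 15 calcineurin pathway genes on each array followed with a smaller shift, at 0.71, 0.65, 1.05 and 0.91 in snf1 and 1.05, 1.05, 1.25 and 1.19 in wild type. The median of 7 glucose-repressed genes was 1.47, 1.57, 0.99 and 0.88 in snf1, and 2.74, 3.12, 2.62 and 3.04 in wild type. On each snf1 array this median was the value of the same gene, so it does not describe the shift of the list there. Single genes of that list varied in both directions. SUC2 shifted by 0.25 in snf1 and -0.07 in wild type, and MAL33 by -0.15 in snf1 and 0.42 in wild type. HXT2 shifted by 0.595 in snf1 and 2.36 in wild type, rank 2 of 4534. GLK1 shifted by 0.69 in snf1 and -0.44 in wild type, and HXK1 by -0.445 in snf1 and 0.12 in wild type. Outside these lists, THI3 shifted by 1.43 in snf1 and 0.45 in wild type, and YCS4 by 0.14 in snf1 and 1.77 in wild type. The snf1 ratios of PHO89 above 0 thus come from arrays 3 and 4, and what distinguishes those arrays was not tested.

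Among the other phosphate transporters few could be tested at pH 8, and none of those rose. PHO84, the proton-coupled high-affinity transporter, had ratios of -0.28, -0.35, -1.62 and -1.06 at pH 8 in snf1, a mean of -0.83 (limma, adjusted p = 0.0146), and no value on any wild-type array there. The call in snf1 was lost without array 3 (adjusted p = 0.0672), without array 4 (adjusted p = 0.0853) and with consecutive arrays averaged (adjusted p = 0.103). At low glucose PHO84 read 3.99 and 3.32 in snf1, a mean of 3.66 or 12.6-fold (adjusted p = 7.49e-05), against 1.18 on the single wild-type array with a value. PHO84 and PHO89 thus pointed in opposite directions on snf1 array 1 at low glucose. PHO87 and PHO90, the low-affinity carriers, gave no value. PHO91, which exports phosphate from the vacuole, had 0.27, -0.27, -0.05 and 0.07 in wild type at pH 8, a mean of 0.01 (adjusted p = 0.968), and a value on 2 snf1 arrays, -0.23 and -0.12.

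SND3, earlier named PHO88 and now known for protein targeting to the endoplasmic reticulum, fell at pH 8 in snf1 (-0.71, adjusted p = 0.00049) and in wild type (-0.81, adjusted p = 0.00013). SYG1, a phosphate exporter, had -0.002, -0.31, -0.50 and -0.14 in snf1, a mean of -0.24 (adjusted p = 0.112), and -0.60, -0.66, -1.12 and -0.99 in wild type, a mean of -0.84 (adjusted p = 8.82e-05). Its difference between genotypes, 0.60, had an adjusted p of 0.0928, and of 0.0443 without wild-type array 1. No member of the uptake list rose at pH 8 in either genotype: 0 of 4 tested in snf1 and 0 of 4 in wild type, with 2 lower in each, against 21.7% higher in snf1 and 25.6% higher in wild type over all genes tested, so at 4 members a count of 0 is near the background.

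Counts over all 4 phosphate lists (32 genes besides PHO89) were close to the background of the arrays. In snf1 at pH 8, 5 of 23 tested rose and 7 fell, against 21.7% higher and 26.2% lower (48.0% called) over all 4591 genes. In wild type at pH 8, 5 of 24 rose and 7 fell, against 25.6% higher and 30.0% lower (55.6% called) over 4979 genes. Their median was -0.13 in snf1 and -0.07 in wild type, beside -0.04 and -0.05 over all genes tested. For the genotype difference at pH 8, limma called 0 of 21 members, and 1, SYG1, without wild-type array 1. An unadjusted p under 0.05 was found for 6 of the 21 members, against 698 of all 4380 genes. The median difference of the members was -0.07, against -0.003 over all genes, and none of the other phosphate genes that were tested approached the -4.13 of PHO89.

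The members that did change at pH 8 held different roles. Among phosphatases, PHO3, the constitutive acid phosphatase, fell, with -1.16 in snf1 and -1.50 in wild type (adjusted p = 2.58e-05 and 2.6e-06). PHO5, the acid phosphatase that phosphate starvation raises through Pho4, averaged -0.89 over the 2 snf1 arrays that measured it, too few for the test, and fell in wild type, with a fitted -1.20 (adjusted p = 0.000316). PHO3 and PHO5 are near-identical copies and may share signal. PHO8, the vacuolar alkaline phosphatase, rose in snf1 (0.41, adjusted p = 0.0246) and in wild type (0.62, adjusted p = 0.00225). The call of PHO8 in snf1 was lost without array 1 (adjusted p = 0.0586) or array 3 (adjusted p = 0.136).

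Among genes of polyphosphate, the vacuolar store of phosphate, VTC5, a subunit of the polyphosphate polymerase, read 0.46, 0.87, 0.83 and 0.64 in snf1, a mean of 0.70 (adjusted p = 0.000171). In wild type it read 1.59, 1.11, 1.17 and 1.17, a mean of 1.26 (adjusted p = 1.55e-06). The genotype difference of VTC5, -0.56, did not pass (adjusted p = 0.0782). The catalytic subunit VTC4 was at -0.24 in snf1 and -0.13 in wild type (adjusted p = 0.122 and 0.395).

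Among the regulators, PHO2, the homeodomain partner of Pho4, rose in snf1 (0.40, adjusted p = 0.0016) and wild type (0.61, adjusted p = 6.84e-05). PHO4 was at 0.38 in snf1 (adjusted p = 0.0333, and 0.0668 to 0.108 without any 1 of the 4 arrays) and at 0.005 in wild type (adjusted p = 0.978). SPL2, an inhibitor of low-affinity phosphate uptake, read 2.10, 2.08, 0.94 and 0.97 in snf1, a mean of 1.52 (adjusted p = 0.000306). In wild type it read 0.40, 0.15, 1.03 and 1.07, a mean of 0.66 (adjusted p = 0.0304, lost without array 3 at adjusted p = 0.125 or array 4 at adjusted p = 0.16). SPL2 was thus the phosphate gene with the highest mean in snf1 at pH 8, and the snf1 arrays where it was highest, 1 and 2, were those where PHO89 was lowest. In wild type the reverse held: SPL2 was highest on arrays 3 and 4, where PHO89 was highest as well.

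**Figure D3:**
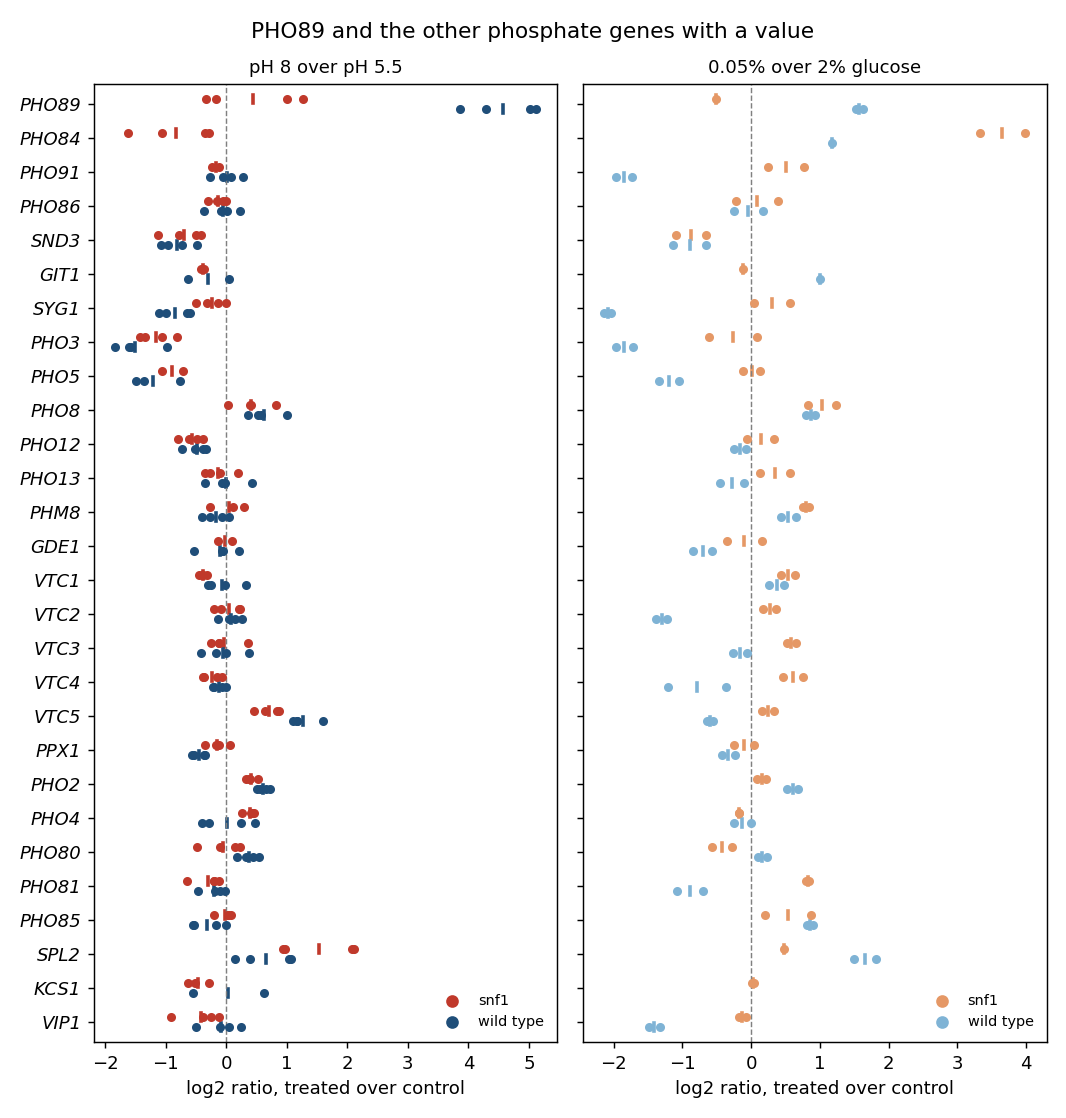
Log2 ratio of treated over control (horizontal axes) for PHO89 and the 27 other phosphate genes with a value, at pH 8 (left panel) and at low glucose (right panel), 1 point per array and a tick at the mean, snf1 above wild type in each row. PHO89 at 3.86 to 5.12 in wild type is the one row of the left panel far to the right, and PHO84 at 3.32 and 3.99 in snf1 stands out in the right panel.

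At low glucose the phosphate genes were called between genotypes about as often as all genes, with a larger share higher and a smaller share lower in snf1. In snf1, 9 of 25 tested rose and 1 fell, against 28.9% higher and 16.9% lower (45.8% called) over 3703 genes. In wild type, 6 of 24 rose and 12 fell, against 33.7% higher and 31.5% lower (65.2% called) over 5225 genes. For snf1 minus wild type, 10 of 23 were higher and 1 lower, against 27.6% higher and 13.0% lower (40.6% called) over 3651 genes, and their median difference was 0.61 against 0.18. The wild-type low glucose arrays had the widest spread over genes, an SD of 1.13 and 1.17 against 0.63 to 0.835 on the other arrays. Scaling all arrays to one median absolute deviation left 5 phosphate genes higher and 0 lower, against 360 higher and 107 lower of all 3651 genes. PHO91 was 0.77 and 0.25 in snf1, against -1.73 and -1.97 in wild type, a difference of 2.36 (adjusted p = 0.000112). SYG1 was 0.57 and 0.04 in snf1, against -2.14 and -2.04 in wild type, a difference of 2.39 (adjusted p = 3.06e-05). PHO81, the inhibitor of the Pho80-Pho85 kinase, was 0.80 and 0.84 in snf1, against -0.70 and -1.08 in wild type, a difference of 1.72 (adjusted p = 0.000161). These genes and PHO84 were higher in snf1 than in wild type at low glucose where measured in both, the opposite side from PHO89, whose own difference there rests on 1 array.

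The genes beside PHO89 on chromosome II were read in the order of the R64 annotation. Of the 12 nearest, 10 had a row, and YBR292C among them gave no value. On the side of PCA1, which lies next to PHO89, no gene read came near the wild-type ratio of PHO89 at pH 8. PCA1, a cadmium exporter, was at a fitted 0.22 in wild type at pH 8 (adjusted p = 0.246), and SUL1, a sulfate permease, at 0.39 (adjusted p = 0.0449, lost without array 3 at adjusted p = 0.175 or array 4 at adjusted p = 0.34). BSD2, the farthest of the genes read on that side, which acts in the sorting of metal transporters, rose at pH 8 by 1.07 in snf1 and 1.24 in wild type (adjusted p = 4.25e-05 and 9.14e-06). At low glucose BSD2 had 0.43 and 0.68 in snf1, against 1.97 and 1.89 in wild type, a difference of -1.37 (adjusted p = 0.00139, with 0.112 with arrays scaled to one spread and 0.0672 with consecutive arrays averaged). On the other side of PHO89 the next gene with a row is MAL33, an activator of the maltose genes, which by its name is read from the opposite strand. The annotation places TYC1 between them, which has no row in the table.

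MAL33 shared both features of PHO89. It read 0.29, 0.58, 0.33 and 0.25 at pH 8 in snf1, a mean of 0.36 (adjusted p = 0.0226, lost without array 1, 2 or 4 at adjusted p = 0.0791, 0.107 and 0.057). In wild type it read 2.74, 2.89, 3.41 and 3.06, a mean of 3.02 or 8.14-fold (adjusted p = 2.36e-08). The groups did not overlap, and the genotype difference was -2.66 (SE 0.16, adjusted p = 1.53e-05, and 0.0688 with consecutive arrays averaged). At low glucose MAL33 had no value in snf1 and 2.87 and 3.21 in wild type, so unlike PHO89 it was as high there as at pH 8.

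The maltose permease MAL31 and the maltase MAL32, which follow MAL33, were also raised in wild type. MAL31 had 0.002 and -0.11 on snf1 arrays 3 and 4, the 2 that measured it, against 1.95, 2.05, 1.84 and 1.67 in wild type, where its mean was 1.88 (adjusted p = 1.24e-06). MAL32 had 0.02, -0.02 and -0.25 in snf1, against 0.76, 0.79 and 0.69 in wild type, each on 3 arrays, and its fitted difference of -0.93 had an adjusted p of 0.0628, or 0.0493 without wild-type array 1. Copies of these genes at other maltose loci may share the signal. Over the neighbours, 5 could be tested between genotypes at pH 8 and 1, MAL33, was called, against 1.16% of all genes tested. In wild type 6 of 9 rose and 2 fell, against 25.6% and 30.0% of all genes.

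**Figure D4:**
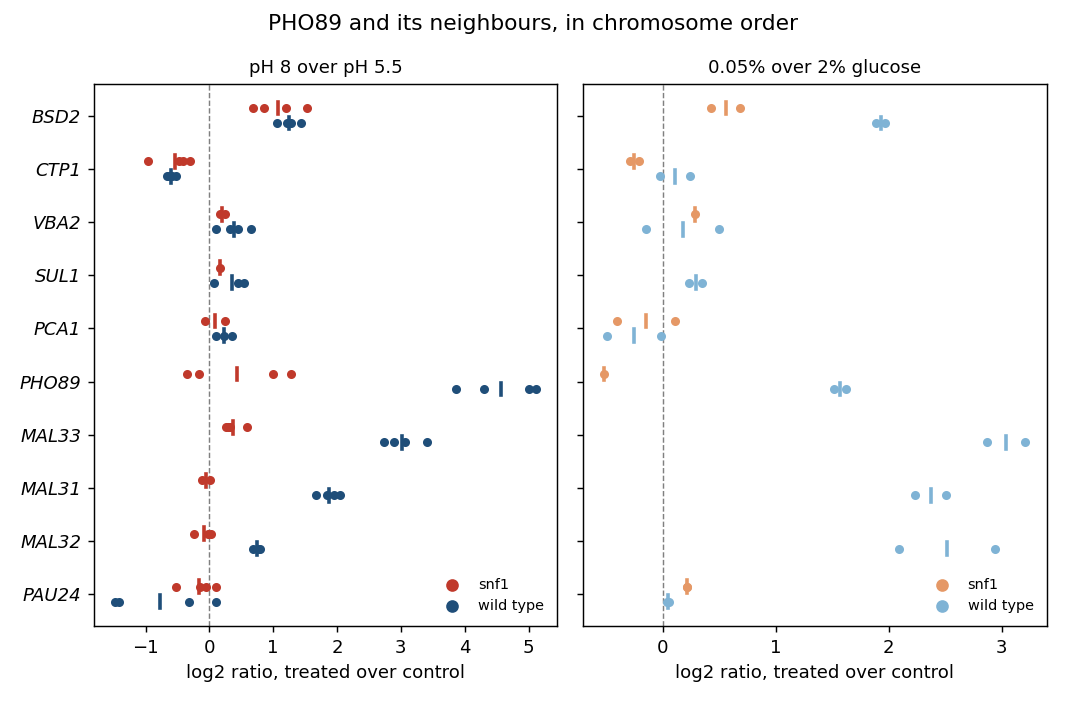
Log2 ratio of treated over control (horizontal axes) for PHO89 and its 9 measured neighbours, in the order of the genes along chromosome II from top to bottom, at pH 8 (left panel) and low glucose (right panel), 1 point per array and a tick at the mean, snf1 above wild type in each row. At pH 8 the wild-type points of PHO89, MAL33 and MAL31 lie apart to the right of the snf1 points, while those of PCA1, SUL1 and VBA2 lie near 0.

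Genes of the pathways known to act on PHO89 were read from lists of their regulators and targets. Of the calcineurin and Crz1 genes, 12 of 16 tested rose and 1 fell in snf1 at pH 8, against 21.7% and 26.2% of all genes tested. In wild type 14 of 20 rose and 3 fell, against 25.6% and 30.0% of all genes. Their median was 0.77 in snf1 and 1.12 in wild type. Members with large changes rose in both genotypes: MEP1, an ammonium permease, 2.61 in snf1 and 2.87 in wild type, CMK2, a calmodulin-dependent kinase, 2.45 in snf1 and 3.71 in wild type, and RCN2, a calcineurin regulator, 2.25 in snf1 and 3.28 in wild type (every adjusted p at most 2.37e-05). Between genotypes 1 of 16 was called (1.16% of all genes tested were), PUN1, a plasma membrane protein, at -1.65 (SE 0.29, adjusted p = 0.0199), which is also among the genes most like PHO89, and the median difference was -0.27. Nearly all of the 16 differences lay below 0. An unadjusted p under 0.05 was found for 6 of the 16, all 6 lower in snf1, against 698 of all 4380 genes in either direction. By limma CMK2 differed by -1.26 (adjusted p = 0.12), RCN2 by -1.02 (adjusted p = 0.0639) and MEP1 by -0.25 (adjusted p = 0.671). The count of members lower in snf1 was 0 without snf1 array 1 or 2 or wild-type array 4, 3 without snf1 array 3 and 4 without wild-type array 1. It was also 0 with arrays scaled to one spread, with pH 8 fitted alone and with consecutive arrays averaged. CRZ1 itself had 2 values in snf1 and none in wild type at pH 8.

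Of the 11 sodium, potassium and proton transporters, 6 could be tested between genotypes at pH 8, and 1, KHA1, was called, against 1.16% of all genes tested. In snf1 2 of 6 rose and 1 fell, and in wild type 3 of 8 rose and 2 fell, with shares over all genes of 21.7% and 26.2% in snf1 and 25.6% and 30.0% in wild type. ENA1 had 3.28 and 2.71 on snf1 arrays 3 and 4, the 2 that measured it, against 2.30, 1.84, 6.53 and 4.64 in wild type (mean 3.83, adjusted p = 0.0018), so the snf1 values lay above wild-type arrays 1 and 2 and below wild-type arrays 3 and 4. ENA2 had 0.35, 0.77, 2.41 and 1.94 in snf1, against 3.09, 2.44, 3.60 and 3.48 in wild type. Its groups did not overlap, by a small margin, and its difference of -1.79 had an adjusted p of 0.0579, with 0.0193 without snf1 array 3, 0.0482 without snf1 array 4 and 0.0397 with no dye term. KHA1, a potassium/proton antiporter, had 1.10, 1.13, 1.26 and 0.94 in snf1, against 2.09, 2.01, 2.03 and 2.10 in wild type, a difference of -0.95 (adjusted p = 0.00177, and 0.441 with consecutive arrays averaged). PMA1, the plasma membrane proton pump, fell in both, with -0.95 in snf1 and -1.36 in wild type (adjusted p = 0.00188 and 0.000122).

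Between genotypes at pH 8 limma called 0 of 6 tested genes of the Rim101 pathway, which senses alkaline pH (1 at an unadjusted p under 0.05), and 0 of 14 repressors and Snf1 kinase genes (also 1). With 1.16% of all genes called, counts of 0 at these sizes are near the background. Over all genes 698 of 4380 had an unadjusted p under 0.05. MIG2 was at 0.54 in snf1 and -0.01 in wild type, a difference of 0.55 (adjusted p = 0.0579, with 0.0453 without snf1 array 3 and 0.0432 with arrays scaled to one spread). The repressor NRG1 rose in both genotypes, with 1.58 in snf1 and 2.02 in wild type (adjusted p = 4.32e-05 and 4.79e-06). MIG1 was at 0.48 in snf1 and 0.51 in wild type (adjusted p = 0.00152 and 0.000864).

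Glucose-repressed genes had the lowest median genotype difference of the lists read. In snf1 at pH 8, 8 of 14 tested rose and 1 fell, against 21.7% and 26.2% of all genes, with a median of 0.43. In wild type 15 of 17 rose and 1 fell, against 25.6% and 30.0% of all genes, with a median of 1.97. Between genotypes 6 of 13 were lower and 0 higher in snf1, against 0.753% lower over all genes tested, and the median difference was -1.27. That count ranged from 4 to 8 over the alternatives other than averaging consecutive arrays, which left 0. SUC2, the invertase, had 0.55, 0.19, 0.87 and 0.38 in snf1, against 2.47, 3.12, 2.53 and 2.92 in wild type, a difference of -2.26 (adjusted p = 6.52e-05). HXT7 had -0.46, 0.01, 0.14 and -0.09 in snf1, against 2.84, 2.74 and 3.08 on 3 wild-type arrays, a difference of -3.02 (adjusted p = 1.39e-05). HXK1, the glucose-repressed hexokinase, was 2.35 in snf1 and 3.62 in wild type, a difference of -1.27 (adjusted p = 0.00282, and 0.139 with arrays scaled to one spread).

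The genes most like PHO89 were sought among the 3194 genes with a value on the 11 arrays where PHO89 has one. Likeness was measured by Pearson's correlation, and again by the root mean square difference of the log2 ratios. The arrays fall into 4 groups, which any gene with a similar group pattern shares, so these values describe rank and carry no test. The median correlation with PHO89 was -0.07 and the median root mean square difference 2.95.

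By correlation the 8 nearest were PUN1 (0.939), ALD4 (0.928), VPS74 (0.916), UGA2 (0.912), SPP382 (0.903), MDH2 (0.902), YCS4 (0.895) and SDS22 (0.895). By root mean square difference they were YCS4 (1.08), ALD4 (1.16), ENA2 (1.17), HXT2 (1.19), YOR385W (1.32), PUN1 (1.37), THI3 (1.38) and MDH2 (1.45). PUN1, ALD4, MDH2 and YCS4 stood in both lists of 8. No gene compared came within 1 log2 unit of PHO89 by the root mean square difference.

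YCS4, ALD4, PUN1, UGA2 and MDH2 were chosen for following PHO89 over these arrays, which includes its genotype difference, so their own differences are given as a description. YCS4 had -0.11, 0.55, 0.33 and 0.40 at pH 8 in snf1, against 2.46, 2.03, 4.01 and 4.01 in wild type, a difference of -2.83. ALD4, the mitochondrial aldehyde dehydrogenase, had 1.24, 1.18, 1.69 and 1.60 in snf1, against 2.20, 2.67, 3.59 and 3.67 in wild type, a difference of -1.61. PUN1 had 1.78, 1.87, 2.08 and 2.33 in snf1, against 2.74, 3.51, 4.40 and 4.00 in wild type. In each of these genes the groups did not overlap and wild-type arrays 3 and 4 were the highest. UGA2, an enzyme of GABA breakdown, differed by -1.09, and MDH2, the cytosolic malate dehydrogenase, by -1.62. In snf1 at pH 8 ALD4, PUN1 and UGA2 were above their control on all 4 arrays, whereas PHO89 was not.

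**Figure D5:**
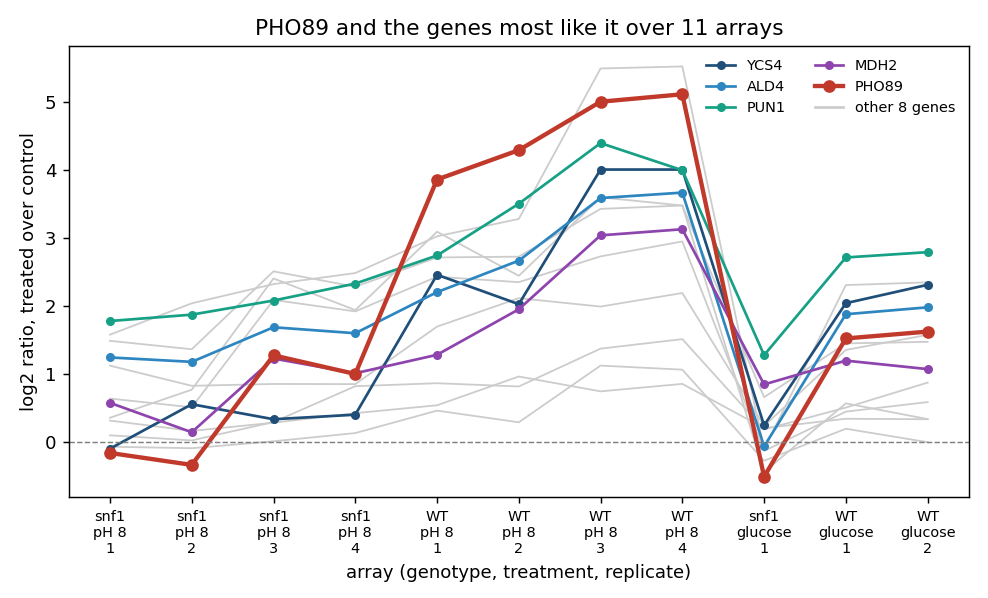
Log2 ratio of treated over control (vertical axis) on each of the 11 arrays (horizontal axis, by genotype, treatment and replicate) for PHO89, the 4 genes in both lists of 8 and the other 8 genes in grey. Lines join the points of a gene for the eye only, and PHO89 runs lowest on snf1 arrays 1 and 2 at pH 8, highest on wild-type arrays 1 and 2 there and below HXT2 alone on wild-type arrays 3 and 4.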

How the data were processed

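The authors deposited 1 value per gene and array from two-colour hybridisations, read here as the log2 ratio of treated to control RNA. How these ratios were normalized is not given in the sources used. Per the labels, 8 µg of RNA was labelled indirectly with dUTP from oligo(dT) primers, and spots under 120 µm or under 100 fluorescence units were left out. The log base is not stated. Values were used as deposited, since array medians lay between -0.065 and 0.112, and 4056 to 5597 genes had a value on an array. Precision is limited by the number of arrays.

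One linear model per gene over the 12 arrays held a mean for each of the 4 groups and a dye effect. It was fitted with lmFit and moderated with eBayes of limma 3.58.1, run in R 4.3.3, with 4.56 prior degrees of freedom. A gene was tested with at least 3 values per group at pH 8 and 2 at low glucose. Two-sided p-values were adjusted by Benjamini-Hochberg over all genes tested in a comparison. A fitted value can differ slightly from the plain mean where an array gave no value. PHO89 was not tested, and its standard errors come from this fit. Row names were matched to R64 locus tags for 5639 rows and not for 573.

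The gene, the lists and the rules were chosen with earlier results of these data known. Genes named are PHO89, its 12 nearest genes, the members of the phosphate lists, up to 6 called members of each other list by size, the genes next to PHO89 in rank, the 8 most like it by each measure, and SNF1, ENA1, MIG1, MIG2, NRG1, RIM101, CRZ1 and PHO4. HXT6 is added as the copy of HXT7. Low glucose differences between genotypes are given for the phosphate genes, the neighbours and the genes most like PHO89.

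The fit was tested on simulated data with known changes at pH 8, 50 genes per size. Of these, 84% were called at a log2 difference of 1 and 98% at 2, with 16 false calls. The simulated noise was independent between arrays, whereas the random block of consecutive arrays gave a correlation of 0.277. The simulation thus does not cover spread that consecutive arrays share. Alternatives were each array centred or scaled, no dye term, each treatment fitted alone, a value required on every array, consecutive arrays averaged or as a random block, the replicate number as a block, and each array left out. Promoter motifs were planned and not analysed here.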

Additional observations from a re-analysis of the deposited data

Results flagged for a closer look

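Of 143 sets of 4 arrays examined for the genes named, 4 had 1 array well apart from the other 3. These were UGA2 in snf1 at pH 8, with 1 array at 1.12, PHO81 in snf1, with 1 at -0.66, VTC5 in wild type, with 1 at 1.59, and SIP2, a subunit of the Snf1 kinase, in wild type, with 1 at 1.03. Chance alone marks about 1 such set in 20. PHO89 was not among them.

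The genotypes differed by limma's test, snf1 minus wild type, in 10 of the 70 named genes tested at pH 8, all 10 lower in snf1, against 1.16% called and 0.753% lower over all genes. The named genes include list members taken for the size of their change and genes taken for their likeness to PHO89, among them YCS4, PUN1, ALD4 and UGA2, so this count and its direction were largely set by that choice. The log2 differences were -3.02 for HXT7, -2.83 for YCS4, -2.66 for MAL33, -2.26 for SUC2, -1.65 for PUN1, -1.61 for ALD4, -1.27 for HXK1, -1.09 for UGA2, -1.04 for AIM17 and -0.95 for KHA1. They share the wild-type arrays and the snf1 arrays with PHO89.

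At low glucose 17 of the 39 such genes tested differed, close to the 40.6% called over all genes. Phosphate genes higher in snf1 were SYG1 by 2.39, PHO91 by 2.36, PHO81 by 1.72, PHO3 by 1.58, VTC2, a polyphosphate polymerase subunit, by 1.57, VTC4 by 1.40, VIP1, an inositol pyrophosphate kinase, by 1.28, PHO5 by 1.20, VTC5 by 0.84 and VTC3 by 0.75. PHO2 differed by -0.45 (limma, adjusted p = 0.0453), a call lost in 10 of 12 alternatives, among them without any 1 array (adjusted p = 0.113 to 0.212), with no dye term (0.0636) and with the replicate block (0.104). The other genes were lower in snf1, with -2.56 for HXT2, -2.14 for ALD4, -1.84 for YCS4, -1.53 for PUN1, -1.37 for BSD2, a neighbour of PHO89 that acts in the sorting of metal transporters, and -1.11 for UGA2. All of these but BSD2 are among the genes most like PHO89, over arrays that include those at low glucose. Their direction here, and their part in the count of 17, were thus favoured by that choice. With arrays scaled to one spread 12 of the 17 were no longer called. Among these by limma were HXT2 (adjusted p = 0.165), YCS4 (0.252), PUN1 (0.484), ALD4 (0.0535), BSD2 (0.112) and UGA2 (0.125). The phosphate genes lost there by limma were PHO3 (adjusted p = 0.0935), PHO5 (0.134), VTC5 (0.0971), VIP1 (0.111), VTC3 (0.111) and PHO2 (0.402). VTC3 was also lost with the replicate block (0.0719).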

How the results depend on the processing

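PHO89 kept the direction of its means and differences under the alternatives that could be run. At pH 8 leaving out single arrays gave a mean of 0.16 to 0.70 in snf1, a mean of 4.39 to 4.81 in wild type and a genotype difference of -4.47 to -3.85, and scaling the arrays gave a difference of -4.01. Scaling lowered its wild-type mean at low glucose to 0.92 and the difference there to -1.50, and without snf1 array 1 no value was left. Deviations of same-numbered arrays at pH 8 correlated at -0.116, -0.386, -0.16 and 0.07 over 3723 genes, and the numbers are not taken as pairs. The deviations were not corrected for dye, and arrays 1 and 2 carried opposite dyes in the genotypes, so this check cannot exclude pairing. Arrays of the same dye, snf1 array 2 and wild-type array 1, gave 0.352. With the number as a replicate block PHO89 differed by -4.13 at pH 8 and -2.04 at low glucose, and 50 genes were called at pH 8 and 1358 at low glucose.

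The counts of genes called depended more on the settings. For the genotype difference at pH 8 (51) they were 30 with the treatment fitted alone, 23 with consecutive arrays as a random block, 0 with them averaged and 22 to 161 with single arrays left out. With consecutive arrays averaged, 1262 were called in snf1 at pH 8 (2203), 1683 in wild type at pH 8 (2766), 637 in snf1 at low glucose (1696) and 538 for the difference there (1481). Scaling gave 2123 in wild type at low glucose (3405) and 467 for the difference there. Leaving out single low glucose arrays gave 817 to 1047 in snf1 and 962 to 1255 for the difference. Of the 10 named genes called between genotypes at pH 8, all 10 were lost by averaging, 4 by scaling and at most 3 by leaving out 1 array, and none changed direction. The 32 phosphate genes gave 2 higher and 3 lower in snf1 at pH 8 and 3 higher and 6 lower in wild type with consecutive arrays averaged. Over all genes this setting gave 556 higher and 706 lower of 4655 in snf1, and 745 higher and 938 lower of 5058 in wild type. At low glucose the phosphate genes gave 2 higher and 10 lower in wild type with arrays scaled, against 937 higher and 1186 lower of all 5225 genes. The cause of these shifts was not tested.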
